A study of Homo sapiens with 6 samples.

Results

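The genes described here are the receptors EGFR, ERBB2 and ERBB3 of the epidermal growth factor receptor family, their ligand genes AREG, EREG, HBEGF, TGFA and NRG1, and MET, the receptor of hepatocyte growth factor. They were taken by gene symbol from the deposited expression table and are 9 of its 60605 genes. MET does not belong to the ERBB family and was read alongside it. All 9 passed the filter on low counts and were among the 14748 genes tested.

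The study asked which genes respond to the loss of PUS1, an enzyme that converts uridine to pseudouridine in RNA, in breast cancer cells. Poly(A) RNA was sequenced from MDA-MB-231, a triple-negative breast cancer cell line. The control group carried a control hairpin (shControl) and the PUS1 knockdown group a hairpin against PUS1 (shPUS1), with 3 libraries labelled as biological replicates in each. Per the methods, hairpins were delivered with lentivirus from the pLKO.1 vector and cells were selected with puromycin, so that both groups are transduced, selected populations of a single line. The hairpin used for these cells is not named in the labels. The deposited column names of all shPUS1 libraries share a knockdown number whose meaning is not stated. Other effects of a single hairpin could not be told apart from those of the loss of PUS1. A separate transduction per replicate is not named either. The p-values therefore measure the spread between these libraries, which may be technical.

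In this family, ligands are made as membrane-anchored precursors that proteases such as ADAM17 release from the cell surface. AREG, EREG, HBEGF and TGFA bind EGFR, NRG1 binds ERBB3, and ERBB2 has no known soluble ligand and acts as the partner of the other receptors. Activated receptors signal through adaptor proteins to the RAS, ERK and PI3K cascades, and EGFR is commonly abundant in triple-negative breast cancer, where ERBB2 is not amplified.

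The libraries held between 14241505 and 19625998 estimated counts. PUS1 itself stood at 2.57, 4.66 and 2.18 FPKM (fragments per kilobase of exon, scaled to the depth of the library) in shControl replicates 1, 2 and 3 and at 1.13, 0.95 and 0.93 FPKM in the matching order for shPUS1. This was a log2 fold change of -1.64 (SE 0.32, edgeR adjusted p = 0.0462), a call lost when shControl replicate 1 (adjusted p = 0.0905) or any shPUS1 library (0.192 to 0.253) was left out. Across genes, shControl replicate 2 stood apart from the other libraries, with a Pearson's r on log2 CPM, the counts relative to library depth, of 0.9505 and 0.9521 with the other shControl libraries, which had 0.981 with each other. Its CPM was at most 0.5 times the lowest of the other 5 libraries for 998 genes tested, or 6.77%, against 0.298% to 0.861% for the other libraries. The line's mesenchymal markers VIM, CD44, CAV1, AXL, MSN and FN1 were all present, with a summed level of 939 to 1145 FPKM in shControl and 738 to 781 FPKM in shPUS1. They did not move alike. VIM, CD44 and AXL lay lower in all shPUS1 libraries, while CAV1, MSN and FN1 overlapped between the groups. MSN tended the other way, at 109 to 128 FPKM in shControl and 126 to 138 FPKM in shPUS1. The list of luminal or epithelial markers summed to 68.8 to 103 FPKM in shControl and 55.7 to 65.4 FPKM in shPUS1, nearly all of it KRT19. EPCAM stood at 2.74 to 3.12 FPKM in shControl and 2.21 to 2.81 FPKM in shPUS1, and GATA3 at 1.55 to 1.98 and 1.72 to 2.16 FPKM. CDH1 was at most 0.1 FPKM in shControl and 0.15 to 0.18 FPKM in shPUS1. ESR1, PGR and FOXA1 were at no more than 0.04 FPKM in any library. The basal or myoepithelial list (KRT5, KRT14, TP63) reached at most 0.18 FPKM in total, and of the white blood cell markers PTPRC reached at most 0.02 FPKM and CD3E was at 0 in all libraries. The part of these differences in the results on receptors and ligands was not tested.

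The promoters of HBEGF, the gene of the group that passed the test, and of AREG and EREG, which lie on the plus strand of chromosome 4 with 56386 bases between them, are shown to set the genes apart by sequence. Each is the 250 bases before the RefSeq transcription start in GRCh38.p14, 5′ to 3′ on the strand of the gene, and 7 of the 9 genes had an entry. HBEGF is read from the minus strand at chr5:140346604-140346853, AREG from the plus strand at chr4:74444886-74445135, and EREG from the plus strand at chr4:74364895-74365144. Capitals mark the motifs searched on both strands. These were the TATA box, spelled TATAAA, the core of the GC box, spelled GGGCGG, the cyclic AMP response element, spelled TGACGTCA, and the AP-1 element, spelled TGANTCA. A GC box core on the opposite strand appears in its reverse complement.
HBEGF: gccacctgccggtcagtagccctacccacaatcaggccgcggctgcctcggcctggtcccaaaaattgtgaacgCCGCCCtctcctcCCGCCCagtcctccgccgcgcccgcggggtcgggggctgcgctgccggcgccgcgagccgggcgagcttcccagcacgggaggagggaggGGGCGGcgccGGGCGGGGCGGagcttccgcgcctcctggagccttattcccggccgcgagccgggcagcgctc
AREG: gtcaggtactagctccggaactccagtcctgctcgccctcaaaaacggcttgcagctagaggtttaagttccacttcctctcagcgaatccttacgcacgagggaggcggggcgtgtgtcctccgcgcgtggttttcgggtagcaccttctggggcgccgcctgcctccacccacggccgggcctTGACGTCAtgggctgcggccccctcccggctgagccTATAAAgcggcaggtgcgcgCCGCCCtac
EREG: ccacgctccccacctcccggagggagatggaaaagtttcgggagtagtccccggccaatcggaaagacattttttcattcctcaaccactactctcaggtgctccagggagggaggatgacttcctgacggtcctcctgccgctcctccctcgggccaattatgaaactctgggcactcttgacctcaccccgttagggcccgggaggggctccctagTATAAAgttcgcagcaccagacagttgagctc

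The HBEGF window held the GC box core at 5 places, of which the last 2 overlap by a base, and none of the other motifs. The AREG window held the cyclic AMP response element from position -65 to -58 and the TATA box from -29 to -24, counted back from the start, with the GC box core once on the opposite strand. EREG held the TATA box from -32 to -27 alone. Of all 35116 promoter windows of this length, 42.6% held the GC box core, 10.7% the TATA box, 6.57% the AP-1 element and 1.65% the cyclic AMP response element, so that the last of these, in AREG, was the rarest match. A match describes these letters and was not tested for binding.

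With edgeR's quasi-likelihood test on all 6 libraries, HBEGF alone of the 9 genes passed an adjusted p of 0.05, higher in the PUS1 knockdown group. The share of genes called over the whole table was 2.58%, with 1.74% higher and 0.841% lower. With library totals in place of TMM scaling, the split over all genes was 164 higher and 132 lower, against 256 and 124. No gene of the group was called lower by edgeR or by DESeq2. At an unadjusted p under 0.05, MET, HBEGF and NRG1 were higher and TGFA lower, 4 of the 9 genes against 25.5% of all genes tested. When a fold change of 1 or more on the log2 scale in either direction was also asked for, 1.37% of all genes and none of the 9 passed. The median log2 fold change was 0.07 for the 9 genes and -0.03 for all genes tested, and without shControl replicate 2 that of the 9 genes turned to -0.18. DESeq2 called 2 of the 9 genes (HBEGF and NRG1), where it called 12.7% of all genes. The same pair passed in edgeR without shControl replicate 2, where 18.6% of all genes did. The CPM of the groups did not overlap for 5 of the 9 genes, with MET, HBEGF and NRG1 higher and TGFA and EREG lower in shPUS1. The same held for 36.1% of all genes tested.

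**Figure D1:**
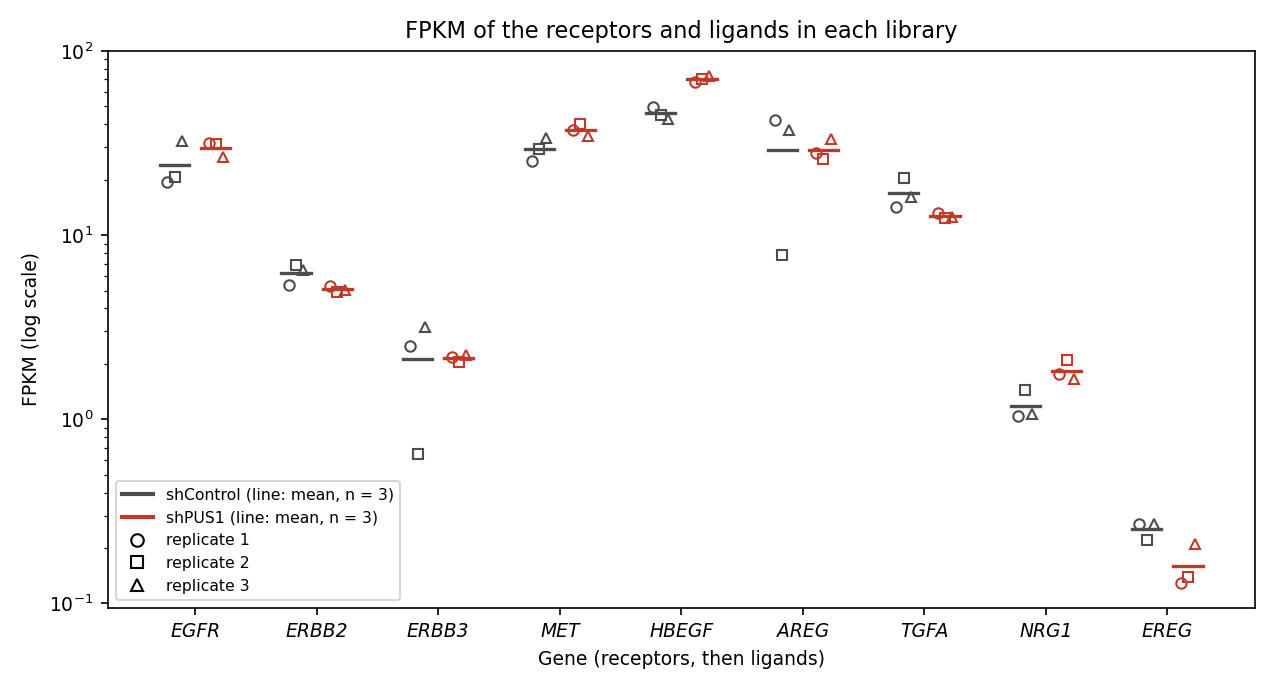
FPKM (log scale) of each receptor and ligand gene in each of the 6 libraries, with shControl in grey, shPUS1 in red, marker shapes for replicates and lines for the means of 3 libraries. HBEGF was highest in both groups, and shControl replicate 2 (square) lay far below the rest for AREG and ERBB3.

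HBEGF encodes heparin-binding EGF-like growth factor, which binds EGFR and ERBB4. The gene (ENSG00000113070) lies on the minus strand of chromosome 5, from 140332843 to 140346603. It stood at 49.4, 45.1 and 42.9 FPKM in shControl replicates 1, 2 and 3, and at 67.6, 70.7 and 73.0 FPKM in shPUS1 replicates 1, 2 and 3. All shPUS1 libraries were above all shControl libraries, and the lowest shPUS1 value was well above the highest shControl value. The group means were 70.5 ± 2.73 FPKM in shPUS1 and 45.8 ± 3.32 FPKM in shControl (SD, n = 3 each), on 1827 to 3878 estimated counts per library. In log2 terms the fold change was 0.64 (SE 0.12), a ratio of 1.56 with a 95% interval of 1.3 to 1.88 (edgeR adjusted p = 0.0413). In RNA from whole cultures, more cells that make a transcript and more transcript per cell cannot be told apart. The call was lost when any library other than shControl replicate 2 was left out, with an edgeR adjusted p of 0.0905 and 0.0515 without shControl replicates 1 and 3 and of 0.222, 0.244 and 0.189 without shPUS1 replicates 1, 2 and 3. Across these fits the log2 fold change lay between 0.57 and 0.69. With that library alone left out it was 0.65 (adjusted p = 0.0055).

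NRG1 encodes neuregulin 1, a ligand of ERBB3 and ERBB4. The gene (ENSG00000157168, chromosome 8, 31639222 to 32855666, plus strand) stood at 1.04, 1.45 and 1.07 FPKM in shControl and at 1.76, 2.09 and 1.66 FPKM in shPUS1 replicates 1, 2 and 3. The shPUS1 values lay above all shControl values, with shControl replicate 2 the closest to them. The means were 1.84 ± 0.225 and 1.19 ± 0.229 FPKM (SD, n = 3 each). The log2 fold change of 0.65 (SE 0.19) was as large as that of HBEGF but missed the threshold in edgeR (adjusted p = 0.0952), and passed it in DESeq2 (adjusted p = 0.0272). In edgeR without shControl replicate 2 the fold change was 0.84 (adjusted p = 0.00408).

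TGFA encodes transforming growth factor alpha, a ligand of EGFR. It (ENSG00000163235, chromosome 2, 70447284 to 70554193, minus strand) stood at 14.3, 20.4 and 16.1 FPKM in shControl and at 13.3, 12.3 and 12.6 FPKM in shPUS1. All shPUS1 values lay below all shControl values, and the highest value of all was that of shControl replicate 2. The means were 12.7 ± 0.472 FPKM in shPUS1 and 16.9 ± 3.17 FPKM in shControl (SD, n = 3 each). The difference of -0.39 on the log2 scale (SE 0.17) did not pass in edgeR (adjusted p = 0.189), and leaving out shControl replicate 2 brought it to -0.21 (adjusted p = 0.161).

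AREG encodes amphiregulin, a ligand of EGFR. It (ENSG00000109321, chromosome 4, 74445136 to 74455005) stood at 41.9, 7.82 and 37.3 FPKM in shControl replicates 1, 2 and 3, and at 28.0, 26.0 and 33.1 FPKM in shPUS1. The shPUS1 values lay between shControl replicate 2 and the other shControl libraries, and replicate 2 was 3.24-fold below the lowest other library in CPM. The group means were nearly the same, 29.01 ± 18.5 FPKM in shControl and 29.05 ± 3.68 FPKM in shPUS1 (SD, n = 3 each). In edgeR the difference was 0.05 on the log2 scale, with a 95% interval of -1.10 to 1.19 (adjusted p = 0.962). Without shControl replicate 2, the shControl mean was 39.6 FPKM and the log2 fold change turned to -0.41, still short of the threshold (adjusted p = 0.0585).

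EREG encodes epiregulin, which binds EGFR and ERBB4. Its gene (ENSG00000124882, chromosome 4, 74365145 to 74388749) was barely detected, with 14 to 25 counts per library. It stood at 0.27, 0.22 and 0.27 FPKM in shControl and at 0.13, 0.14 and 0.21 FPKM in shPUS1. The groups did not overlap, but shPUS1 replicate 3 lay only just below shControl replicate 2. Fitted at -0.60 (SE 0.35, edgeR adjusted p = 0.307), the log2 fold change had a 95% interval of -1.40 to 0.20, so that a difference was not detectable at this depth.

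EGFR, the receptor of the ligands above other than NRG1, was the most abundant ERBB receptor in every library. Its gene (ENSG00000146648, chromosome 7, 55019017 to 55211628, plus strand) stood at 19.3, 20.6 and 32.5 FPKM in shControl and at 31.7, 31.1 and 26.7 FPKM in shPUS1. The groups overlapped, since shControl replicate 3 held the highest value. The means were 24.2 ± 7.28 and 29.8 ± 2.75 FPKM (SD, n = 3 each). The log2 fold change was 0.33 with a 95% interval of -0.13 to 0.79 (edgeR adjusted p = 0.326). It was 0.19 without shControl replicate 1 and 0.57 without shControl replicate 3 (adjusted p = 0.565 and 0.0606).

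ERBB2 (ENSG00000141736, chromosome 17, 39687914 to 39730426, plus strand) stood at 5.37, 6.91 and 6.50 FPKM in shControl and at 5.27, 4.93 and 5.01 FPKM in shPUS1. The groups were nearly adjacent in FPKM and overlapped in CPM, where shControl replicate 1 had 54.4 and shPUS1 replicate 1 had 55.1. In edgeR its log2 fold change was -0.28 (SE 0.14, 95% interval -0.61 to 0.04, edgeR adjusted p = 0.25). Its gene overlaps MIEN1 and PGAP3 on the opposite strand, whose counts came to 60.7% and 5.47% of those of ERBB2. The strandedness of the libraries is not given in the sources used here, so reads of the overlap cannot be assigned with certainty.

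ERBB3, a receptor with little kinase activity that signals through its partners, showed the same split as AREG. Its gene (ENSG00000065361, chromosome 12, 56076799 to 56103505, plus strand) stood at 2.51, 0.65 and 3.19 FPKM in shControl and at 2.17, 2.04 and 2.24 FPKM in shPUS1. The tight shPUS1 values lay between shControl replicate 2, which was 3.06-fold below the lowest other library in CPM, and the other shControl libraries. The log2 fold change was 0.07 (SE 0.46, 95% interval -0.99 to 1.13, edgeR adjusted p = 0.935). Leaving out shControl replicate 2 turned it to -0.36 (adjusted p = 0.0694). AREG and ERBB3 were the only genes of the 9 whose CPM in shControl replicate 2 was at most 0.5 times the lowest other library. The same held for 6.77% of all genes tested.

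MET (ENSG00000105976, chromosome 7, 116672196 to 116798377, plus strand) stood at 25.2, 29.2 and 33.8 FPKM in shControl and at 37.3, 39.9 and 34.5 FPKM in shPUS1. All shPUS1 values lay above all shControl values, though shPUS1 replicate 3 exceeded shControl replicate 3 by less than the spread within either group. The means were 29.4 ± 4.27 and 37.2 ± 2.68 FPKM (SD, n = 3 each). The log2 fold change of 0.36 (SE 0.14) did not pass the threshold in edgeR (adjusted p = 0.158) or in DESeq2 (adjusted p = 0.108).

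**Figure D2:**
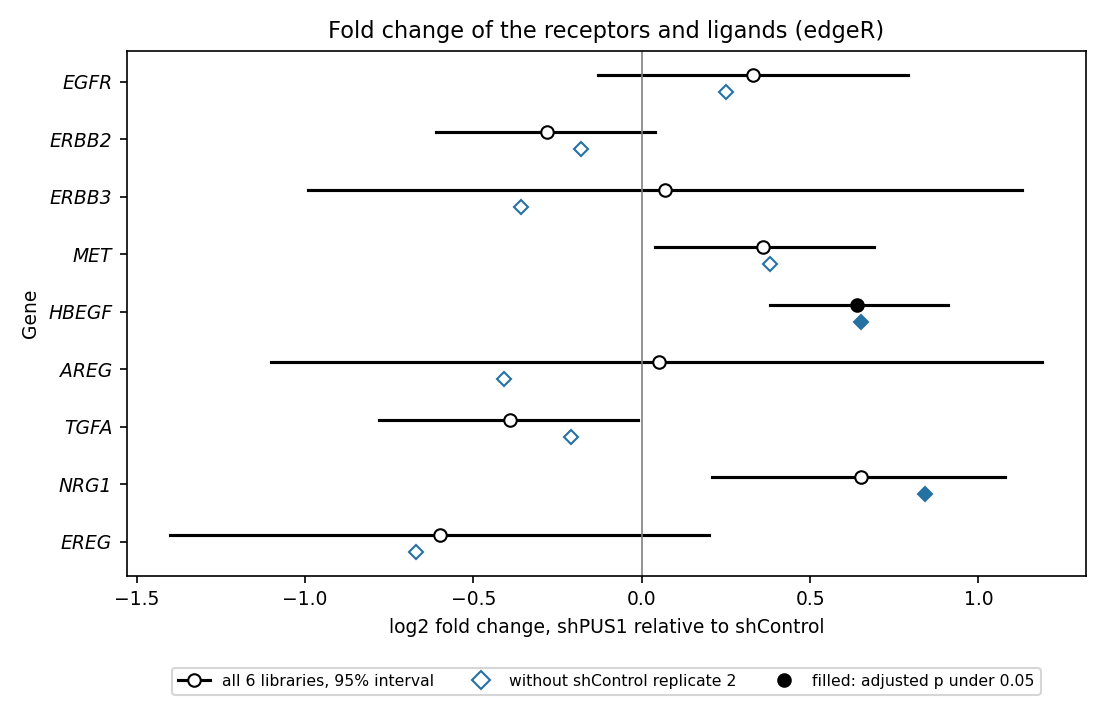
Log2 fold change of each gene, shPUS1 relative to shControl, from edgeR on all 6 libraries (circles with 95% intervals) and without shControl replicate 2 (diamonds), filled where the adjusted p was under 0.05. HBEGF was filled in both, NRG1 without that library alone, and AREG and ERBB3 lay on opposite sides of 0 in the pair of fits.

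**Figure D3:**
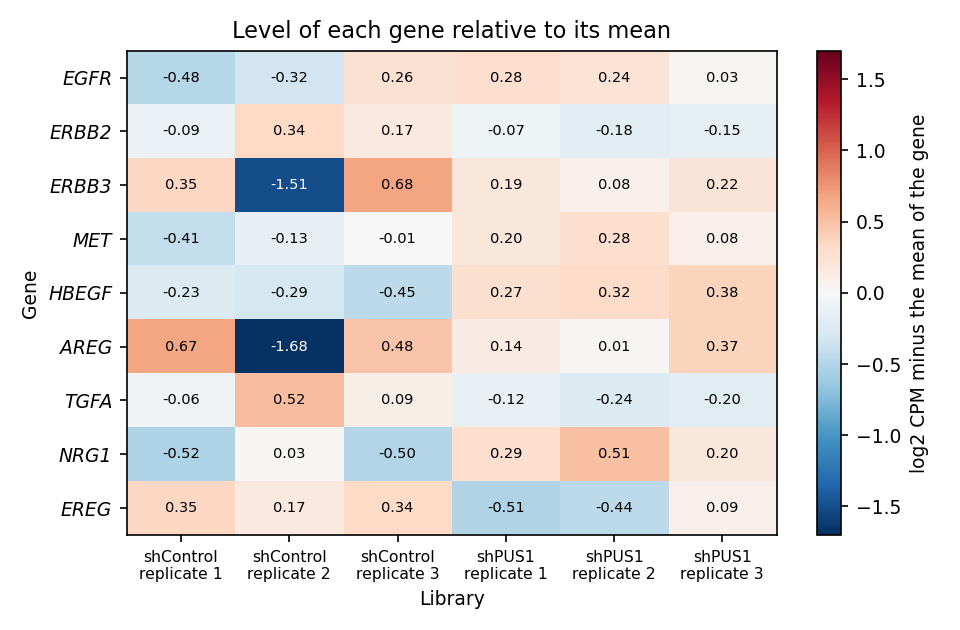
Log2 CPM of each gene in each library, minus the mean of the gene over the 6 libraries (blue lower, red higher). The darkest cells were shControl replicate 2 for AREG (-1.68) and ERBB3 (-1.51), while HBEGF ran from -0.45 to -0.23 in shControl and from 0.27 to 0.38 in shPUS1.

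In levels per length (FPKM), the order of the genes by mean was HBEGF, MET, AREG, EGFR, TGFA, ERBB2, ERBB3, NRG1 and EREG in shControl. It was the same in shPUS1 except that EGFR came before AREG, 29.8 against 29.05 FPKM, a difference within their spread. In shControl, every HBEGF value lay above every MET value, but MET overlapped AREG, AREG overlapped EGFR and EGFR overlapped TGFA. In shPUS1, each gene lay clear of the next in the order, except that EGFR overlapped AREG and ERBB3 overlapped NRG1. ERBB3 and NRG1 overlapped in shControl as well. TGFA, ERBB2 and NRG1 lay clear above the next gene in both groups. The order depends on the exonic length used for each gene, which was 21398 bases for NRG1 and 1642 bases for AREG. In counts per library these genes were closer, at 326 to 819 for NRG1 and 252 to 1033 for AREG.

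Shares between genes, like the order, depend on the exonic length used for each gene. The summed FPKM of the 5 ligand genes was 107, 75 and 97.6 in shControl and 111, 111 and 121 in shPUS1. HBEGF made up 46.2%, 60.1% and 44.0% of this sum in shControl and 61.0%, 63.6% and 60.5% in shPUS1. AREG made up 39.2%, 10.4% and 38.2% in shControl and 25.3%, 23.4% and 27.5% in shPUS1. The mix in shControl replicate 2 therefore differed from the other shControl libraries, with an HBEGF share close to that of shPUS1. TGFA made up 13.3%, 27.3% and 16.5% in shControl and 11.97%, 11.1% and 10.5% in shPUS1. The ratio of HBEGF to TGFA was 3.46, 2.20 and 2.67 in shControl and 5.10, 5.74 and 5.79 in shPUS1. This ratio was higher in all shPUS1 libraries than in any shControl library. That had to follow, since HBEGF was higher and TGFA lower in all shPUS1 libraries, and it is no further evidence. The mean ratio was 5.54 ± 0.384 against 2.78 ± 0.636 (SD, n = 3 each). Its exact two-sided permutation test p of 0.1, the smallest that 3 libraries against 3 allow, was fixed in the same way. Of the ERBB receptor sum, EGFR made up 71.0%, 73.2% and 77.0% in shControl and 81.0%, 81.7% and 78.6% in shPUS1. The ratio of EGFR to MET overlapped between the groups, at 0.767, 0.706 and 0.964 against 0.850, 0.780 and 0.772. Of 15 sums, shares and ratios compared in this way, 9 reached an exact p of 0.1, and no adjusted p was below 0.167. These measures share genes and are not independent of each other.

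**Figure D4:**
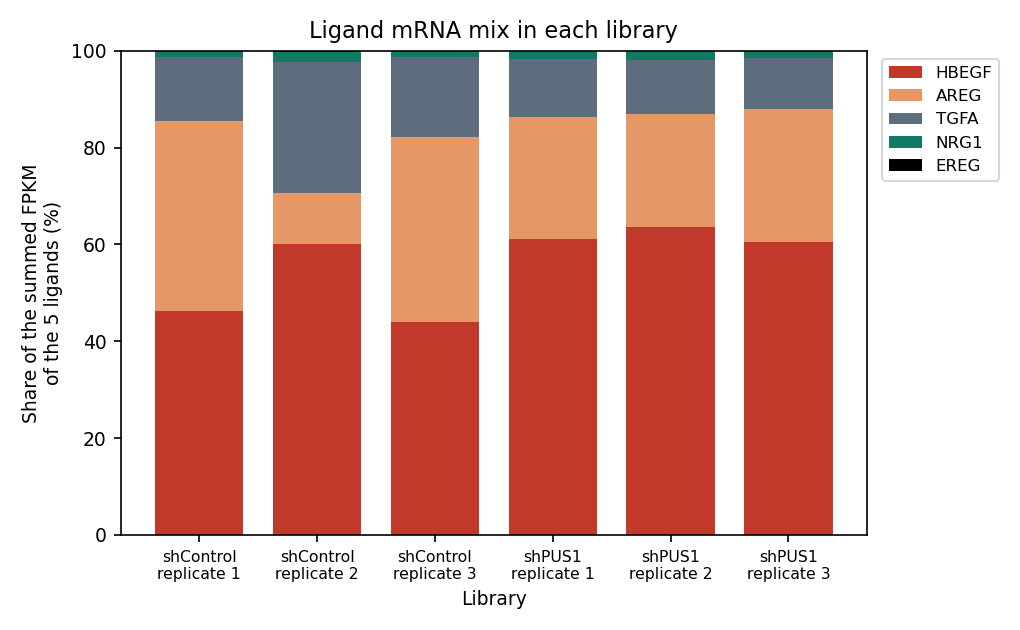
Share of each ligand gene in the summed FPKM of the 5 ligand genes, in percent, for each library. HBEGF took 60.5% to 63.6% in the shPUS1 libraries and 44.0% to 60.1% in the shControl libraries, and AREG shrank to 10.4% in shControl replicate 2. EREG was too small to be seen. The shares depend on the exonic length used for each gene.

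The remaining genes of the family were at the edge of detection. EGF, which binds EGFR, stood at 0.38, 0.31 and 0.32 FPKM in shControl and at 0.59, 0.61 and 0.41 FPKM in shPUS1, with a log2 fold change of 0.70 (edgeR adjusted p = 0.158). NRG2, a neuregulin, stood at 0.62, 0.61 and 0.73 against 0.48, 0.38 and 0.43 FPKM, with a log2 fold change of -0.58 (adjusted p = 0.21). The values of neither gene overlapped between the groups, as for 36.1% of all genes tested. Neither was called by edgeR or DESeq2, with 1 of them (EGF) at an unadjusted p under 0.05 (25.5% over all genes). The other 6 of the 8 genes did not pass the filter. ERBB4, the receptor partner of several of these ligands, had at most 8 counts in a library, betacellulin (BTC) at most 19, NRG4 at most 9 and epigen (EPGN) 2 counts over all libraries. NRG3 had no count in any library, which allows up to 0.0294 to 0.0406 FPKM by library from counting error alone. HGF, the ligand of MET, had 1 count over all 6 libraries, beside a MET level of at least 25.2 FPKM.

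Genes of the shedding step, which are proteases with their partners, activators and inhibitors, were read as a list of 9. In edgeR 2 of them rose and 0 fell, and 4 had an unadjusted p under 0.05. Over all genes tested, edgeR called 2.58%, and 25.5% had such an unadjusted p. TIMP3, an inhibitor of ADAM proteases that include ADAM17, rose from 20.8, 19.0 and 20.2 to 40.7, 44.2 and 42.8 FPKM, a log2 fold change of 1.12 (SE 0.11, adjusted p = 0.00899). FURIN, a convertase that activates proprotein precursors, rose from 19.3, 19.1 and 24.7 to 38.6, 41.3 and 35.3 FPKM, a log2 fold change of 0.90 (SE 0.14, adjusted p = 0.0319). Both groups of libraries were well separated for these genes. FRMD8, a partner that stabilises the ADAM17 complex, stood at 8.76, 8.68 and 9.04 against 14.1, 15.9 and 11.6 FPKM (log2 fold change 0.68, adjusted p = 0.0559) and passed in DESeq2. ADAM17 itself stood at 10.2, 6.20 and 9.84 against 12.6, 11.96 and 12.03 FPKM (log2 fold change 0.51, adjusted p = 0.132). Without shControl replicate 2 all 4 passed in edgeR, where 18.6% of all genes did. In both fits none of the list was called lower. The median log2 fold change of the list was 0.14.

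Of the genes around MET, 8 of 10 were tested and none was called by edgeR or by DESeq2, with 1 (CD44) at an unadjusted p under 0.05. Over all genes tested, edgeR called 2.58% and DESeq2 12.7%, and 25.5% had such an unadjusted p in edgeR. CD44, an adhesion receptor that can act with MET, stood at 88.4, 99.6 and 92.5 FPKM in shControl and at 75.9, 74.6 and 76.2 FPKM in shPUS1 (log2 fold change -0.29, edgeR adjusted p = 0.169). SPINT2, an inhibitor of the proteases that activate HGF, had a log2 change of -0.25 (adjusted p = 0.222), the integrin subunit ITGB4 -0.26 (adjusted p = 0.329) and MST1R, the receptor most like MET, -0.35 (adjusted p = 0.335). The values of CD44 and SPINT2 did not overlap between groups, as for 36.1% of all genes tested, and those of ITGB4 and MST1R did. The median log2 fold change of the list was -0.13, and -0.25 without shControl replicate 2.

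Among 16 adaptors and proximal effectors, none was called by edgeR (2.58% over all genes), and 6 were at an unadjusted p under 0.05 (25.5%). DESeq2 called 3 higher and 1 lower (12.7% over all genes). The same 4 genes passed in edgeR without shControl replicate 2, where 18.6% of all genes did. SOS1, which loads RAS with GTP, stood at 6.24, 5.60 and 8.06 FPKM in shControl and at 10.5, 11.6 and 9.96 FPKM in shPUS1 (log2 fold change 0.71, edgeR adjusted p = 0.0519). The docking proteins GAB2 and GAB1 had log2 fold changes of 0.73 and 0.57 (adjusted p = 0.0951 and 0.0984). RASA1, which turns RAS off, stood at 17.3, 25.6 and 20.5 FPKM against 13.2, 14.4 and 14.1 FPKM (log2 fold change -0.59, adjusted p = 0.0949). None of these genes overlapped between the groups, as for 36.1% of all genes tested. They were named for the smallest adjusted p of the list, so their separation is no further evidence. The median of the list was 0.16.

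Of 15 negative regulators, SOCS5 alone was called, where 2.58% of all genes were. The 4 at an unadjusted p under 0.05 were close to the share over all genes (25.5%). SOCS5, which promotes the breakdown of EGFR, rose from 11.2, 8.08 and 10.95 to 16.5, 19.9 and 17.2 FPKM, a log2 fold change of 0.86 (SE 0.15, edgeR adjusted p = 0.0385). CBLB, a ubiquitin ligase for activated receptors, stood at 1.84, 0.75 and 2.01 against 4.0, 3.97 and 4.24 FPKM, the largest log2 fold change of the list at 1.45 (adjusted p = 0.055). Without shControl replicate 2, its lowest library, the log2 fold change was 1.12 (adjusted p = 0.000618). ERBIN, which binds ERBB2, had 0.59 (adjusted p = 0.0662), and the phosphatase PTPN1 -0.36 (adjusted p = 0.0952). DESeq2 called all 4 of these genes (12.7% over all genes). The fit without shControl replicate 2 in edgeR called 3 higher and 3 lower (18.6% over all genes). The median of the list was 0.19.

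Of 18 genes of receptor trafficking, SH3KBP1 alone was called (2.58% over all genes), with 6 at an unadjusted p under 0.05 (25.5%). SH3KBP1, an adaptor that links CBL proteins to endocytosis, rose from 16.3, 20.7 and 14.8 to 37.2, 40.1 and 43.1 FPKM, a log2 fold change of 1.23 (SE 0.17, edgeR adjusted p = 0.0248). STAM and EPS15, which handle ubiquitinated receptors, had log2 fold changes of 0.54 and 0.48 (adjusted p = 0.0529 and 0.0619), and RAB5A, a GTPase of early endosomes, 0.52 (adjusted p = 0.108). DESeq2 called these 4 genes (12.7% over all genes), and edgeR without shControl replicate 2 called 6, all higher (18.6% over all genes). The median of the list was 0.22.

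Of 18 genes that ERK signaling is known to induce, IER3 alone was called (2.58% over all genes). In this list, 6 had an unadjusted p under 0.05 (25.5% over all genes). IER3, an immediate early gene, rose from 807, 321 and 727 to 2131, 2481 and 2323 FPKM, a log2 fold change of 1.94 (SE 0.30, edgeR adjusted p = 0.032). Without shControl replicate 2, its lowest library, the log2 fold change was 1.63 (adjusted p = 0.00026). DUSP6, the phosphatase that limits ERK, pointed the other way at 56.4, 41.2 and 52.8 against 34.4, 33.8 and 37.1 FPKM (log2 fold change -0.49, adjusted p = 0.0854), and was lower in DESeq2 and in edgeR without shControl replicate 2. JUN and SPRY4 had log2 fold changes of 0.40 and 0.49 (both adjusted p = 0.119). The list thus held members on both sides, with a median of 0.15. Without shControl replicate 2 the median was -0.02, and MYC, a transcription factor gene outside the naming rule, was called lower as well (log2 fold change -0.58, adjusted p = 0.015).

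**Figure D5:**
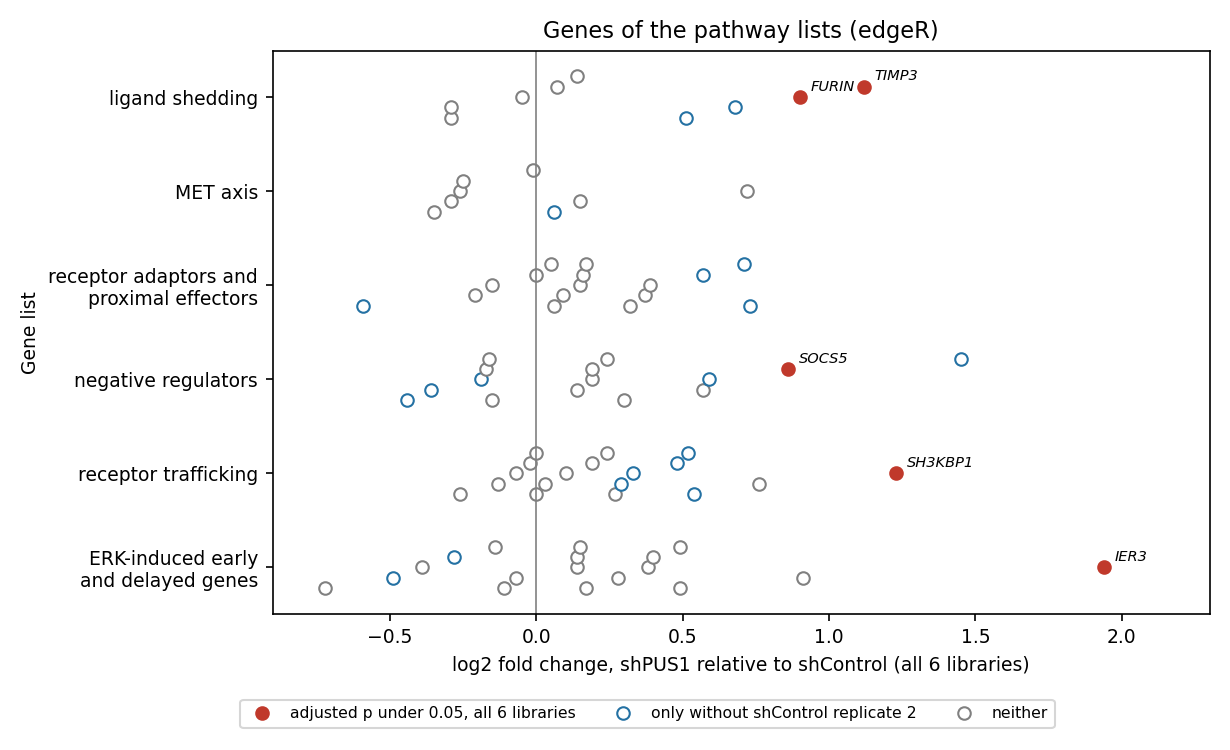
Log2 fold change (edgeR, all 6 libraries) of each tested gene of the pathway lists, in red where the adjusted p was under 0.05, in blue where this held only without shControl replicate 2, and in grey otherwise. The 5 red genes, TIMP3, FURIN, SOCS5, SH3KBP1 and IER3, all lay above 0.

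The 5 called genes of these lists kept their call without shControl replicate 2 or 3. They lost it without shControl replicate 1 or any shPUS1 library, where their edgeR adjusted p lay between 0.0553 and 0.237.

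For each gene of the family, the genes with the most similar profile were found by the root mean square difference of centred log2 CPM over the 6 libraries, among the 11484 other genes (11485 for EREG) that were tested and averaged 1 FPKM or more. For HBEGF these were DUSP14 and CISD1, at 0.0414 and 0.0479, where the profile of HBEGF itself had a root mean square of 0.331. DUSP14 was called higher (log2 fold change 0.59, edgeR adjusted p = 0.0499) and CISD1 was not (0.56, adjusted p = 0.0544). Both were picked for likeness to HBEGF in the same libraries, so fold changes near its own are no further evidence. For MET the nearest genes were AHDC1 and ARAP3, at 0.0135 and 0.0225. For NRG1 they were RTKN2 and ENSG00000277879, and for TGFA MAP4K4 and KPNB1. For EGFR they were ARHGEF17 and AKNA, for ERBB2 DNAAF5 and RPS28, and for EREG ARHGAP27P1-BPTFP1-KPNA2P3 and CNKSR1. The profiles of AREG and ERBB3, led by shControl replicate 2, were nearest to ENSG00000286190 and to MAP4K3-DT and ADAMTSL4, respectively. No gene of the family was among the 2 nearest genes of another. With 2 genes kept out of 11484, and EREG too low to be a candidate, this does not show whether the family shares a profile.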

How the data were processed

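RNA-seq libraries of MDA-MB-231 cells, 3 labelled shControl and 3 labelled shPUS1, were analysed, with samples grouped by the titles in their labels. The submitters' processing notes name HISAT2 and HTSeq 0.6.1. The genome build, annotation release and strandedness are not given in the sources used here. The values deposited by the authors were estimated counts per gene, not normalized, and FPKM computed from those counts. The study tested its genes with DESeq2.

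Here, estimated counts were rounded, filtered with filterByExpr, scaled by TMM (factors 0.973 to 1.032) and entered into the quasi-likelihood model of edgeR (version 4.0.16, R version 4.3.3), with Benjamini-Hochberg adjustment over all 14748 genes tested. The biological coefficient of variation was 0.22. A call was an adjusted p under 0.05. DESeq2 1.42.0, limma 3.58.1 on log2(FPKM + 1) and log2(FPKM + 0.1), other scalings and filters, a replicate block and each library left out were alternatives. The test was first run on simulated data. Libraries with the same replicate number did not deviate together (residual correlations -0.053, -0.026 and -0.19), so no pairing was used. Depth was 14241505 to 19625998 counts per library, and limits from counts cover counting error only.

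Named genes were the 9 receptors and ligands, PUS1, 8 further family genes, up to 4 genes per list by smallest adjusted p, and the 2 nearest profiles per gene. One of these nearest genes and a marker gene are not reported here. Members and lists were chosen with earlier results of these data known, and lists came from general knowledge of the pathway. Coordinates are those of the deposited table, and of its 60605 identifiers 58337 are in GENCODE release 29 (GRCh38), 99.90% of them overlapping there. No 100-base stretch of a receptor or ligand transcript of that release occurred in another gene. Python 3.11.15 with pandas 2.3.3, numpy 2.4.6, scipy 1.17.1 and matplotlib 3.10.9 was used.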

Additional observations from a re-analysis of the deposited data

How the results depend on the processing

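Of the log2 fold changes of the 9 genes under the alternatives, 114 kept their direction and their side of the threshold, 6 lost the call, 2 gained it and 3 reversed. Most of the 114 were genes not called in either fit. All 6 losses were of HBEGF, the only gene called in the main fit, which kept its call in 8 of 14 alternatives. The reversals were ERBB3 at -0.36 and AREG at -0.41 without shControl replicate 2, and AREG at -0.06 without shPUS1 replicate 3. Over fits that left out a library, ERBB3 ran from -0.36 to 0.47, AREG from -0.41 to 0.41, HBEGF from 0.57 to 0.69 (adjusted p 0.0055 to 0.244), NRG1 from 0.55 to 0.84 and PUS1 from -1.86 to -1.20. The number of the 9 genes called, 1, ran from 0 to 2, the genes called higher from 0 to 1483 and those called lower from 0 to 1330. Leaving out shPUS1 replicate 3, edgeR called 0 genes, while 2581 had an unadjusted p under 0.05. Leaving out shPUS1 replicate 1, shPUS1 replicate 2 or shControl replicate 1, it called 11, 6 and 11 higher and 0 lower, while 2215, 2112 and 3750 had such an unadjusted p. No other tool was run on fewer libraries, and the cause was not tested.

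With the replicate block, HBEGF had 0.65 (adjusted p = 0.146) and PUS1 -1.55 (adjusted p = 0.0969), 0 of the 9 genes were called, and 18 genes were called higher and 0 lower, with 2815 at an unadjusted p under 0.05. TIMP3, FURIN, SOCS5, SH3KBP1 and IER3 also lost their call with the block (adjusted p 0.0617 to 0.119). Replicate numbers gave no sign of pairing, so this fit is an alternative only. DESeq2 called 1050 higher and 820 lower, 2 of the 9 genes and NRG1 at 0.65 (adjusted p = 0.0272). No filter on low counts gave 756 and 528, and the fold threshold 131 and 71 with 0 of the 9 genes. Library totals gave 164 higher and limma with a pseudocount of 0.1 gave 157. limma gave PUS1 -1.0 with a pseudocount of 1 (adjusted p = 0.0593) and -1.48 with 0.1 (adjusted p = 0.057). Genes called in the lists without shControl replicate 2 numbered 4 for ligand shedding, 1 for the MET axis (SPINT1, lower), 4 for adaptors, 6 for negative regulators, 6 for trafficking and 3 for ERK-induced genes. With DESeq2 they numbered 4 for adaptors, 4 for negative regulators, 4 for trafficking and 2 for ERK-induced genes. Over all genes, 18.6% were called without shControl replicate 2 and 12.7% with DESeq2. EREG had no value under the mean FPKM filter of 1. The depth limits EREG and the family genes below the filter.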

Other observations

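Several further genes of the pathway lists set shControl replicate 2 apart from the other 5 libraries, besides AREG and ERBB3, and they were picked out after their values were seen. SPINT1, an inhibitor of the proteases that activate HGF, stood at 0.891 CPM there and at 8.79 to 12.9 CPM in the other libraries. GRB7, an adaptor of ERBB2, stood at 2.73 CPM against 12.5 to 16.2 CPM, and EGR1, an immediate early gene, at 4.82 CPM against 16.7 to 20.7 CPM. DUSP5, a nuclear ERK phosphatase, stood at 110 CPM against 326 to 383 CPM, and ERRFI1, which inhibits EGFR, at 192 CPM against 385 to 609 CPM. CBLB stood at 9.44 CPM against 22.1 to 52.5 CPM, and IER3 at 445 CPM against 952 to 3361 CPM. ST14, of the genes around MET, stood at 0.367 CPM against 1.02 to 1.72 CPM. In the other direction, the cyclin gene CCND1 stood at 817 CPM against 297 to 358 CPM. Less far apart were AP2M1 of the trafficking list, at 415 CPM against 271 to 285 CPM, and FOSL1, at 444 CPM against 234 to 335 CPM. Over all genes tested, 2.44% were at least 2 times the highest other library in shControl replicate 2, as CCND1 was and AP2M1 and FOSL1 were not. Of the tested genes of the lists, shControl replicate 2 was at most 0.5 times the lowest other library for 2 of 8 around MET, 1 of 16 adaptors, 2 of 15 negative regulators, 3 of 18 ERK-induced genes and none of those for shedding or trafficking. Over all genes tested the share was 6.77%.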
